A study of Mus musculus with 6 samples.

Results

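Genes of the neural crest, its glial precursors and young neurons were followed in cultured mouse dorsal pancreatic buds treated with a BET inhibitor. The set was a list of 31 genes, and each of the 31 had a named row among the 24010 genes measured. They were divided into 9 crest and glial precursor genes and 22 neuronal genes. Dorsal buds came from embryos at E11.5, were pooled by 10 and were held in culture for 24 h before total RNA was hybridised to Affymetrix whole-transcript arrays. Control buds (CTRL) received 0.1% DMSO, the solvent, and treated buds received I-BET151 at 500 nM or JQ1 at 100 nM. Each of the 3 groups had 2 arrays. The labels name no strain or sex for the embryos. Nor do they say if pools of a group came from different litters or days. The p-values therefore reflect only how far these pools differed, and that difference may be technical. The 2 compounds were given at different doses, and their values are set side by side without a comparison between them.

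Neural crest cells leave the dorsal neural tube and colonise the gut and pancreas, where they give rise to Schwann cell precursors and to autonomic neurons. Sox10 and Foxd3 keep crest cells in a progenitor or glial state. Signalling through the receptors Ednrb, Erbb3 and Ret supports their migration, survival and maturation, and Phox2 and Hand2 factors direct the autonomic neuron programme. I-BET151 and JQ1 displace BET proteins, which read acetylated histones and assist transcription elongation. In the embryonic pancreas crest cells surround the epithelium, so that a bud contains them as a minority beside epithelium, mesenchyme, vessels and blood cells.

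The intensities are values on a linear scale that the authors normalized by RMA, which makes the distribution of all arrays alike. Array medians lay between 54 and 57, and the lowest value was 5 on every array. Across all genes, log2 intensities correlated at 0.995 to 0.996 within a group and at 0.990 to 0.993 between a control and a treated array. A gene is said to have risen or fallen where limma gave a Benjamini-Hochberg adjusted p under 0.05 over all 24010 genes. These calls rested on all 6 arrays: with any 1 of the 6 arrays left out (either CTRL array, either JQ1 array or either I-BET151 array), limma called 0 genes in every comparison. At an unadjusted p under 0.05, these fits held 3596 to 4434 genes for I-BET151 and 4245 to 5363 for JQ1. When genes below the median intensity were also left out, these fits called 377 to 1042 genes for I-BET151 and 951 to 2205 for JQ1. Of the 31 listed genes 21 passed that filter, and each one called here kept the sign of its change in these fits. Fits without an array of the other compound leave the log2 change of a compound as it was. With each array centred on its median, the calls were 183 higher and 350 lower for I-BET151 and 664 and 727 for JQ1, against 63 and 209, and 272 and 640, as deposited.

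Promoter sequences are shown for listed genes that rose or fell, because the remaining results turn on these genes. They come from the RefSeq promoter table of build GRCm38.p6. The table held 26 promoters for 21 of the 31 genes. Windows are printed for 5 of the 8 genes with a call in any comparison. Stmn2 and Gap43 had no entry. Gfra3 is not shown, as windows on its chromosome were left out of the printing. Each window runs from 250 bases before the annotated start of transcription to 50 bases after it, and is written along the strand of the gene. Capitals mark matches, on either strand, to any of 5 motifs. The first is the box near the start of some genes that positions the polymerase, spelled TATAAA. The E-box, which basic helix-loop-helix factors bind, is spelled CANNTG. The core motif of SOX factors is spelled ATTGTT. The AP-2 motif, named for the family of Tfap2a and Tfap2b, is spelled GCCNNNGGC. The cAMP response element is spelled TGACGTCA. Overlapping matches were merged. Tac2 lies at chr10:127724228-127724527 on the plus strand, Fabp7 at chr10:57784673-57784972 on the plus strand, Ednrb at chr14:103843652-103843951 on the minus strand, Uchl1 at chr5:66675871-66676170 on the plus strand and Ngfr at chr11:95587649-95587948 on the minus strand. Tac2, Fabp7 and Ednrb fell, and Uchl1 and Ngfr rose, in at least 1 comparison.
Tac2: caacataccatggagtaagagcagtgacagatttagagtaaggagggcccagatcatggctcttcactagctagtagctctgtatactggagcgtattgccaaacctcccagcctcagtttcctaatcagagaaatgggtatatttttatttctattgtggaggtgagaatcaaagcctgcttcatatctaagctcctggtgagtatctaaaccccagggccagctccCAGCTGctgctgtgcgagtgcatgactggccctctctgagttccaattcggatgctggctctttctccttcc
Fabp7: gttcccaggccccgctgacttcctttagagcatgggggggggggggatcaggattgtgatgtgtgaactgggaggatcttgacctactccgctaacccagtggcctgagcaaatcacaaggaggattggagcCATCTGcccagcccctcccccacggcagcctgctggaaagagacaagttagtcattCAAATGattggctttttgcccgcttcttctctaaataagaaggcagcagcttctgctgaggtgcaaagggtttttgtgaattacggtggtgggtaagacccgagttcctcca
Ednrb: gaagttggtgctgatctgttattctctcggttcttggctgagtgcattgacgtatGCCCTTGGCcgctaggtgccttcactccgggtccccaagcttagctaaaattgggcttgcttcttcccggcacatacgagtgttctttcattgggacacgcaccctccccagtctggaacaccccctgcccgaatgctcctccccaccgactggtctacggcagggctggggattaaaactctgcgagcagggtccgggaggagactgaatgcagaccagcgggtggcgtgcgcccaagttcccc
Uchl1: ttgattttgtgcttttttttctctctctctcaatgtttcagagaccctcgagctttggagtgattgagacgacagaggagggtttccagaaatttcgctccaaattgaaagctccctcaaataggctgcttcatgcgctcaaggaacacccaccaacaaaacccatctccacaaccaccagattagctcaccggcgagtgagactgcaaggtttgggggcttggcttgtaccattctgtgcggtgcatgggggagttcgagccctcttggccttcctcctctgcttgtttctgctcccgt
Ngfr: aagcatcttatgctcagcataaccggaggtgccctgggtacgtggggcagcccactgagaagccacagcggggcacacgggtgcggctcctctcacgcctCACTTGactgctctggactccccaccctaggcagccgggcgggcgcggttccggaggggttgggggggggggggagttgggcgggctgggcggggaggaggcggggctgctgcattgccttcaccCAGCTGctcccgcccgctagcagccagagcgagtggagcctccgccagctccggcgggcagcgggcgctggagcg

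These promoters differed in composition. The Ngfr window had a GC content of 71.7% with 23 CpG dinucleotides, whereas the Tac2 window had 48.3% with 3. Fabp7, Ednrb and Uchl1 lay between them, at 54.0%, 58.7% and 50.7%. The median over the 26 promoters of listed genes was 54.0%, beside 52.7% over all 32851 promoters in the table. E-box matches were found in the Tac2 window at -22, in the Fabp7 window at -118 and -62, and in the Ngfr window at -150 and -25, counted from the start of transcription. The single AP-2 match was in the Ednrb window at -195, and the Uchl1 window held none of the 5 motifs. E-boxes were present in 17 of the 26 promoters and in 72.3% of all promoters. The AP-2 motif was in 2 of 26 (16.6% of all), the SOX core in 1 of 26 (10.7%), the box spelled TATAAA in 4 of 26 (13.6%) and the cAMP response element in 3 of 26 (1.79%). The last 3 promoters were those of Th, Cartpt and Foxd3, none of which was called under either compound. A match describes letters in this window only, and no binding was measured.

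Under I-BET151, 3 of the 31 genes fell (Ednrb, Stmn2 and Tac2), beside 0.870% of all genes, and 1 rose (Uchl1), beside 0.262%. Under JQ1, 6 fell, the same 3 and Fabp7, Gfra3 and Gap43, beside 2.67% of all genes, and Uchl1 rose, beside 1.13%. For the mean of both inhibitors against control, the same 6 genes as under JQ1 fell, beside 3.33% of all genes, and Uchl1 and Ngfr rose, beside 1.59%. The remaining 23 genes passed in none of the 3 comparisons. By subgroup, the falls were in 1 of 9 crest and glial genes and 2 of 22 neuronal genes for I-BET151, and in 2 of 9 and 4 of 22 for JQ1. Calls in either direction made up 1.13% of all genes for I-BET151, 3.80% for JQ1 and 4.92% for the mean of both. Both compounds were compared with the same control arrays, so their counts are not independent. The 31 genes and the further lists below were chosen with earlier results of these data known. A count above the share of all genes is therefore not a test of any of these lists.

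Changes over the list were mostly small. The median log2 change of the 31 genes was -0.21 under I-BET151 and -0.15 under JQ1, and that of all genes tested was 0.0033 and 0.016. Both I-BET151 arrays lay below both controls for 17 of the 31 genes and above them for 4, where 20.7% and 21.5% of all genes did so. For JQ1 these counts were 12 and 5, where 21.0% and 23.9% of all genes did so. All 4 treated arrays lay below both controls for 11 genes and above for 3, where 14.9% and 14.4% of all genes did so. The listed genes were brighter than most, with a median control intensity of 118.5, beside 57.5 for all genes. With genes below the median intensity left out, 7 of the 21 listed genes kept fell under I-BET151, beside 827 of 12005. Under JQ1 6 of the 21 fell, beside 1319 of 12005. In whole buds the cells that made each RNA are not known, and fewer cells and less RNA per cell cannot be told apart.

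**Figure D1:**
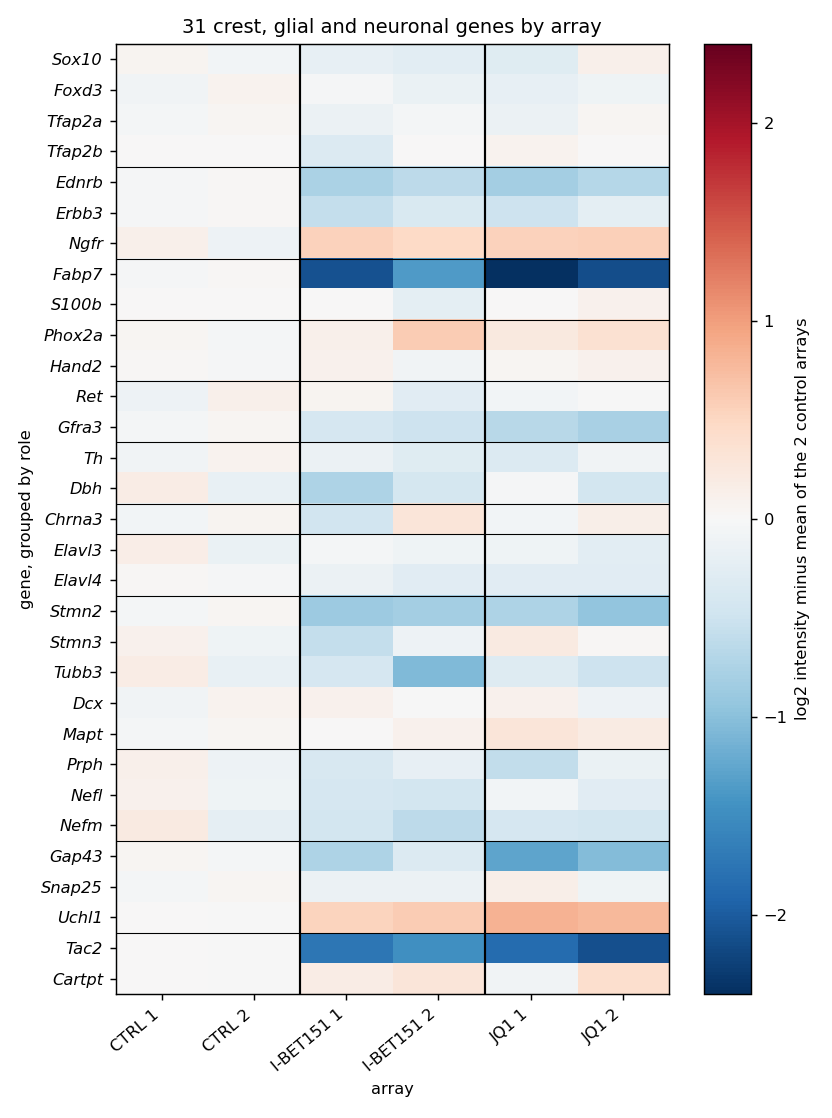
Heat map of the 31 genes (rows, grouped by role) on the 6 arrays (columns), coloured by the log2 intensity minus the mean of the 2 control arrays of that gene. Fabp7 and Tac2 are the deepest blue on all 4 treated arrays, Uchl1 and Ngfr are red there, and most other rows stay pale.

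Among the receptors of crest and glial precursors, Ednrb fell and Ngfr was higher. Ednrb encodes the endothelin B receptor, which keeps enteric crest cells migrating and undifferentiated. Control arrays read 641 and 665, against 387 and 422 with I-BET151 and 369 and 406 with JQ1. All 4 treated arrays were below both controls. The fall was 1.62-fold under I-BET151 (log2 change -0.69 ± 0.082, SE; limma adjusted p = 0.0474) and 1.69-fold under JQ1 (-0.75 ± 0.082; adjusted p = 0.0241).

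Ngfr encodes the low-affinity neurotrophin receptor p75, a surface marker of crest cells that is also made by some mesenchymal cells. It measured 307 and 260 in controls, 412 and 393 with I-BET151, and 414 and 418 with JQ1, so that every treated array exceeded both controls. It rose for the mean of both inhibitors (log2 change 0.53 ± 0.083; limma adjusted p = 0.0429). Taken alone, each compound missed the threshold, with adjusted p = 0.0978 for I-BET151 and 0.0555 for JQ1.

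Erbb3 encodes the neuregulin receptor on which Schwann cell precursors depend. It stood at 247 and 256 in controls, 169 and 194 with I-BET151, and 179 and 214 with JQ1. All treated arrays were lower than both controls, but the gene was not called (limma adjusted p = 0.145 and 0.181). The 95% intervals of its log2 change were -0.78 to -0.16 and -0.67 to -0.051.

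Of the glial cytosolic proteins, Fabp7 had the largest log2 changes of the 31 genes under both compounds. It encodes brain lipid-binding protein, a fatty acid carrier of radial glia and Schwann cell precursors. Its intensity was 795 and 829 in controls, 191 and 317 with I-BET151, and 154 and 185 with JQ1. Every treated array was far below both controls, and the pair of I-BET151 arrays was the farthest apart. The fall was 4.81-fold under JQ1 (log2 change -2.27 ± 0.26; limma adjusted p = 0.0264). Under I-BET151 the value was 3.30-fold lower (-1.72 ± 0.26), which missed the threshold (adjusted p = 0.0692). S100b, a calcium-binding protein of more mature glia, lay at 11 to 14 on all arrays, close to the lowest value of the table, and there were no detection calls to say whether it was present.

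The crest transcription factors were not called under either compound. Sox10, which specifies crest glia, was at 54 and 49 in controls, 45 and 43 with I-BET151, and 42 and 56 with JQ1. The JQ1 arrays bracketed the controls. Its 95% interval was -0.62 to 0.17 under I-BET151 and -0.48 to 0.31 under JQ1, so the sign of any change was not determined. Foxd3, a repressor that maintains crest progenitors, measured 75 and 84, 78 and 71, and 69 and 74 in the same order, with log2 changes of -0.093 and -0.15. The AP-2 factor genes Tfap2a and Tfap2b, which act when crest is first induced, lay between 12 and 16 on all arrays.

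**Figure D2:**
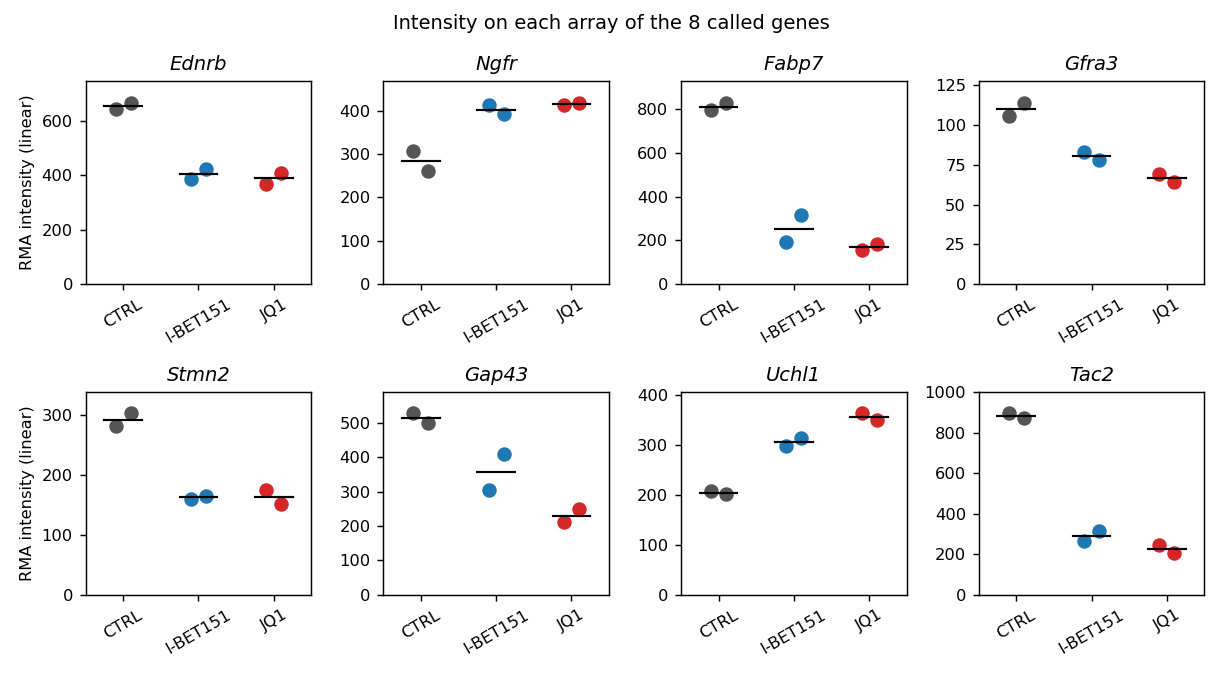
RMA intensity (linear, vertical axis from 0) on each array for the 8 genes that rose or fell in at least 1 comparison, with 2 arrays per group as points and the group mean as a line. Ednrb, Fabp7, Gfra3, Stmn2, Gap43 and Tac2 lie below both controls on all 4 treated arrays, and Ngfr and Uchl1 above.

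In the autonomic group, Gfra3 fell while the transcription factors did not. Gfra3 encodes the artemin co-receptor that signals with Ret in sympathetic precursors. It was at 106 and 114 in controls, 83 and 78 with I-BET151, and 69 and 64 with JQ1. Every treated array was below both controls. The fall under JQ1 was 1.65-fold (log2 change -0.73 ± 0.077; limma adjusted p = 0.0239). The I-BET151 value was 1.37-fold lower and missed the threshold (adjusted p = 0.0842).

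Ret, the shared receptor tyrosine kinase of the GDNF family ligands, measured 176 and 210 in controls, 200 and 160 with I-BET151, and 184 and 192 with JQ1. Its groups overlapped, and the 95% intervals ran from -0.48 to 0.27 and from -0.41 to 0.34. Phox2a, a homeodomain factor of noradrenergic neurons, was at 62 and 58 in controls, 65 and 91 with I-BET151, and 71 and 77 with JQ1. All treated arrays were above both controls, but the I-BET151 arrays were far apart and the gene was not called (limma adjusted p = 0.361 and 0.403). Hand2, a sympathetic factor that is also made by splanchnic mesenchyme, stayed between 619 and 711 on all arrays, with log2 changes of 0.0079 and 0.075.

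The enzymes and receptor of mature autonomic neurons were not called. Dbh, which converts dopamine to noradrenaline, read 104 and 82 in controls, 55 and 69 with I-BET151, and 90 and 68 with JQ1. Only the I-BET151 arrays were both below the controls (limma adjusted p = 0.240). Th, tyrosine hydroxylase, lay between 38 and 50 on all arrays. Chrna3, a nicotinic receptor subunit of autonomic ganglia, read 143 and 158, 110 and 184, and 144 and 165. The I-BET151 pools lay on either side of both controls for this gene, and the 95% interval there was -0.75 to 0.60.

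Of the 5 microtubule genes, Stmn2 fell under both compounds and the other 4 were not called. Stmn2 encodes a stathmin that destabilises microtubules in growing axons. It stood at 282 and 302 in controls, 160 and 165 with I-BET151, and 175 and 152 with JQ1. All 4 treated arrays lay well below both controls. The fall was 1.80-fold under I-BET151 (log2 change -0.84 ± 0.091; limma adjusted p = 0.0449) and 1.79-fold under JQ1 (-0.84 ± 0.091; adjusted p = 0.0241).

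Its paralogue Stmn3 was not called, at 99 and 85 in controls, 62 and 84 with I-BET151, and 106 and 94 with JQ1. Tubb3, the neuronal beta-tubulin, read 45 and 35, 30 and 19, and 32 and 28, lower on every treated array, with wide intervals of -1.40 to -0.063 and -1.08 to 0.26 (limma adjusted p = 0.234 and 0.450). Dcx, doublecortin, a marker of migrating young neurons, stayed between 222 and 258 on all arrays. Mapt, the axonal protein tau, read 26 and 28 in controls, 27 and 29 with I-BET151, and 33 and 31 with JQ1. Both JQ1 arrays were above both controls, with a 95% interval of 0.045 to 0.45, and the gene was not called (limma adjusted p = 0.166).

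The intermediate filament genes had lower means without a call. Nefm, the medium neurofilament chain, read 489 and 359 in controls, 309 and 272 with I-BET151, and 316 and 309 with JQ1. All treated arrays were below both controls, which themselves were far apart (limma adjusted p = 0.197 and 0.238). Nefl, the light chain, was at 304 and 266, 215 and 210, and 271 and 234, and only the I-BET151 arrays lay below both controls (adjusted p = 0.148). Prph, peripherin of peripheral neurons, was between 25 and 41, with log2 changes of -0.29 and -0.38. The RNA-binding protein genes Elavl3 and Elavl4, early markers of postmitotic neurons, were not called, with log2 changes of -0.082 and -0.21 for I-BET151 and of -0.18 and -0.27 for JQ1.

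Of the growth cone, synaptic and ubiquitin genes, Gap43 fell under JQ1, Uchl1 rose under both compounds and Snap25 was not called. Gap43, a membrane protein of growth cones, read 527 and 498 in controls, 306 and 408 with I-BET151, and 212 and 249 with JQ1. All 4 treated arrays were below both controls, and the pair of I-BET151 arrays was far apart. The fall under JQ1 was 2.23-fold (log2 change -1.16 ± 0.16; limma adjusted p = 0.0397), and the I-BET151 value of 1.45-fold lower was not called (adjusted p = 0.195).

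Uchl1 encodes a ubiquitin hydrolase that marks neurons and is also found in neuroendocrine cells. It rose from 207 and 202 in controls to 298 and 313 under I-BET151 and to 363 and 350 under JQ1. Replicates lay close together, and every treated array was above both controls. The rise was 1.49-fold under I-BET151 (log2 change 0.58 ± 0.061; limma adjusted p = 0.0443) and 1.74-fold under JQ1 (0.80 ± 0.061; adjusted p = 0.0154). Snap25, a synaptic vesicle fusion protein, stayed between 107 and 131 and was not called.

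Of the 2 neuropeptide genes, Tac2 fell and Cartpt was not called. Tac2 encodes neurokinin B, a tachykinin. Its intensity was 894 and 873 in controls, 265 and 317 with I-BET151, and 244 and 206 with JQ1. The treated arrays lay far below both controls. The fall was 3.05-fold under I-BET151 (log2 change -1.61 ± 0.13; limma adjusted p = 0.0421) and 3.94-fold under JQ1 (-1.98 ± 0.13; adjusted p = 0.0127). Cartpt, a peptide of enteric and endocrine cells, read 225 and 220, 252 and 273, and 211 and 295. The JQ1 arrays lay on either side of the controls.

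**Figure D3:**
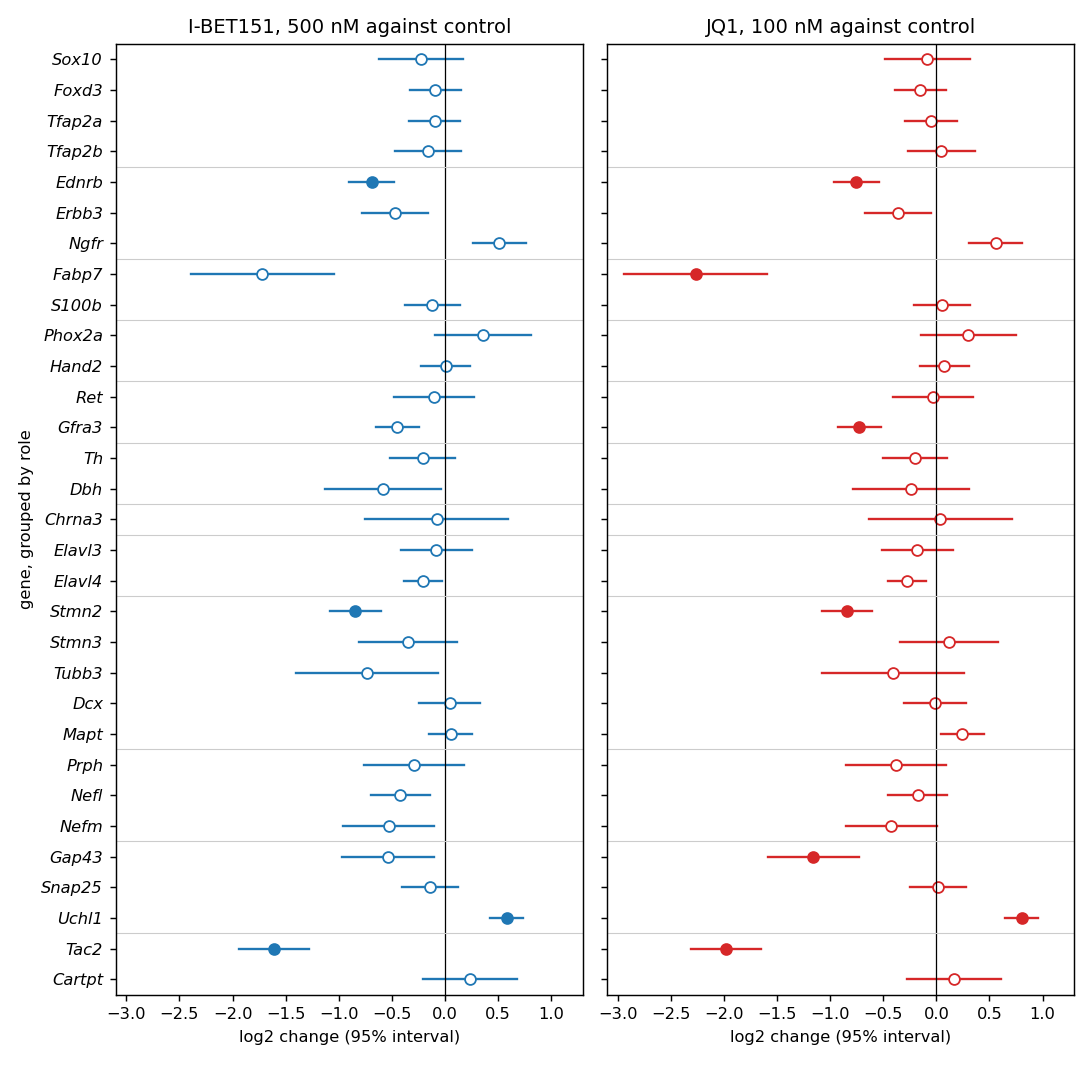
Log2 change of each of the 31 genes (rows, grouped by role) under I-BET151 (left) and JQ1 (right) against control, with 95% intervals from limma as lines. Filled points passed the adjusted threshold (4 genes on the left, 7 on the right) and open points did not. The intervals are not widened for the many genes tested.

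Some other genes of the same pathways were called lower. Of 26 measured ligands and receptors of the endothelin, GDNF, neuregulin, neurotrophin, BMP and CXCL12 pathways, 1 was called lower for I-BET151, beside 0.870% of all genes, and 3 for JQ1, beside 2.67%, and none was called higher for either. Ntf5, which encodes neurotrophin 4, fell under both, from 53 and 53 to 35 and 31 under I-BET151 and to 31 and 30 under JQ1 (limma adjusted p = 0.0461 and 0.0208). Its receptor gene Ntrk2 fell under JQ1, from 107 and 130 to 70 and 68 (log2 change -0.77; adjusted p = 0.0383). Gfra2, the neurturin co-receptor, went from 148 and 156 to 77 and 77 under I-BET151, just short of the threshold (adjusted p = 0.0501), and fell to 84 and 67 under JQ1 (adjusted p = 0.0282). Edn3, which encodes the ligand of the Ednrb receptor and was singled out after its values were seen, read 130 and 157, 92 and 108, and 73 and 87, and was not called (adjusted p = 0.179 and 0.059).

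Among 23 further crest and glial precursor genes, Postn fell under both compounds and Sox6 under JQ1, which made 1 and 2 falls beside 0.870% and 2.67% of all genes. Postn encodes periostin, a matrix protein of crest derivatives that mesenchyme also makes, and went from 489 and 550 to 124 and 148 and to 115 and 104 (limma adjusted p = 0.0306 and 0.0112). Sox6, a SOX factor, went from 346 and 373 to 254 and 252 under JQ1 (adjusted p = 0.0392). The median of these 23 genes was -0.069 under I-BET151 and -0.017 under JQ1.

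Among 44 further autonomic and enteric neuron genes, 1 was called lower for I-BET151, beside 0.870% of all genes, and 3 for JQ1, beside 2.67%, with medians of -0.040 and -0.0042. Ddc, the decarboxylase that yields dopamine and serotonin, fell under both, from 356 and 341 to 138 and 167 and to 144 and 122 (limma adjusted p = 0.0449 and 0.0198). The choline transporter gene Slc5a7 fell under JQ1 from 45 and 46 to 28 and 24 (adjusted p = 0.032). Cntn1, an axonal adhesion protein, fell there from 100 and 108 to 76 and 76 (adjusted p = 0.0491). For the mean of both inhibitors Gng3 also fell (log2 change -0.56; adjusted p = 0.0447), and Map2 (0.40; adjusted p = 0.0396) and Tbx3 (0.33; adjusted p = 0.0456) rose.

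Among markers of the other cells of the bud, some endothelial and mesenchymal genes fell, while the endocrine, progenitor and macrophage lists had medians between -0.032 and 0.10. Falls made up 0.870% of all genes for I-BET151 and 2.67% for JQ1. For the 12 endothelial markers, 2 fell under I-BET151 (Tek and Eng) and 6 under JQ1 (these and Pecam1, Cdh5, Emcn and Plvap), and their summed intensity was 6536 to 6646 in controls, 4694 to 5025 under I-BET151 and 4414 to 4511 under JQ1. Of 17 mesenchyme markers, Dcn fell under I-BET151, and Dcn, Prrx1 and Meox1 under JQ1, with sums of 18817 to 19223, 16914 to 17142 and 16755 to 16927. Of 16 endocrine markers none fell, and the early endocrine factor gene Neurod1 rose under JQ1 from 147 and 164 to 277 and 279 (limma adjusted p = 0.0313). The endocrine sums were 10228 to 10396, 10351 to 10398 and 9627 to 10578.

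The 13 markers of progenitor epithelium had 1 fall under JQ1, that of Krt18, with sums of 9106 to 9337, 8781 to 9113 and 8450 to 8874. None of 10 macrophage markers was called by limma, and at an unadjusted p under 0.05 there were 4 for I-BET151 and 5 for JQ1, beside 4529 and 5194 of all 24010 genes. Their log2 changes were negative for 5 and positive for 5 under I-BET151, and negative for 4 and positive for 6 under JQ1, with sums of 4711 to 4979, 5023 to 5375 and 4921 to 5216. The defining markers all lay above the lowest value of 5, but there were no detection calls. Ptf1a, at 53 to 69, was near the array medians of 54 to 57. The lowest readings were 432 for Neurog3 and 4740 for Gcg (endocrine), and 228 for Pdx1, 53 for Ptf1a and 1418 for Sox9 (progenitors). For mesenchyme they were 1553 for Pdgfra, 1310 for Pdgfrb and 1007 for Col1a1. For endothelium they were 466 for Pecam1, 1157 for Cdh5 and 1025 for Kdr, and for macrophages 116 for Ptprc, 772 for Cd68 and 231 for Adgre1. By comparison, the 9 crest and glial genes summed to 2162 to 2187, 1321 to 1481 and 1270 to 1398, and the 22 neuronal genes to 4685 to 4896, 3675 to 3794 and 3712 to 3739. These sums weigh the brightest rows most, in the crest and glial group Ednrb and Fabp7, and in the neuronal group Tac2, Hand2 and Gap43. Means in controls, I-BET151 and JQ1 were 883.5, 291 and 225 for Tac2, and 512.5, 357 and 230.5 for Gap43. For Hand2 they were 660, 665 and 695. The part of the endothelial and mesenchymal markers in the falls of listed genes was not tested.

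**Figure D4:**
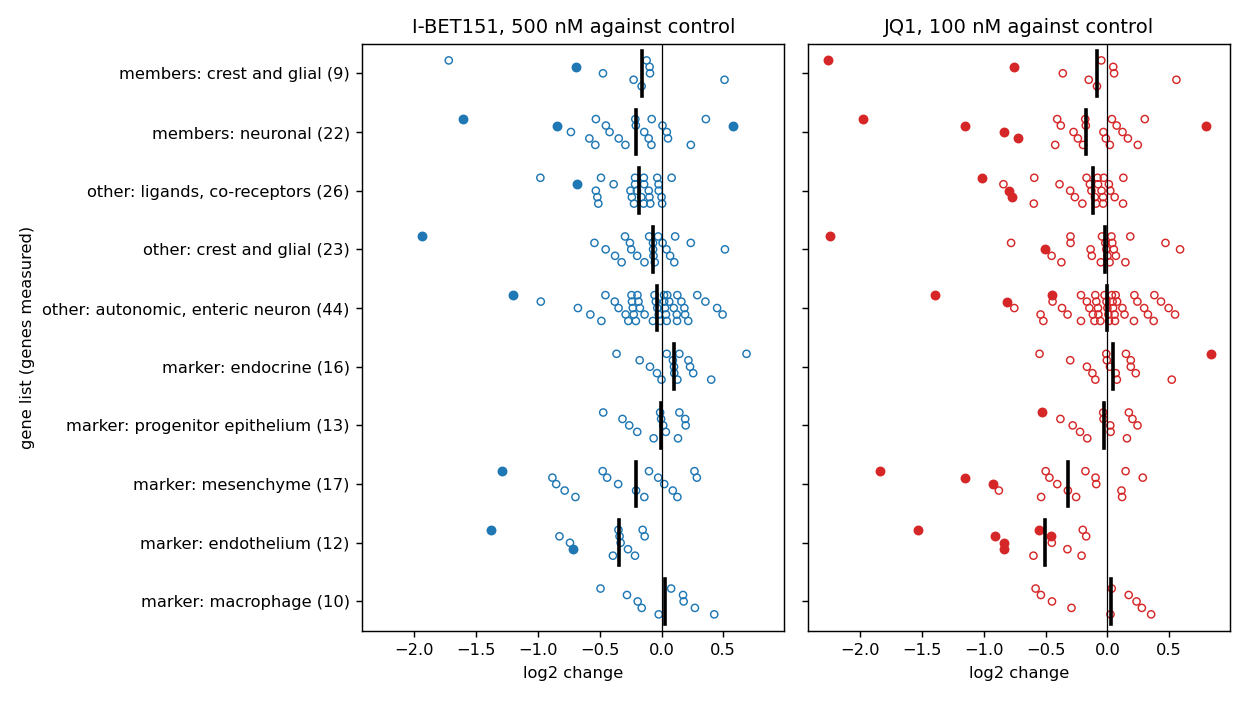
Log2 change of each gene (points) in the listed subgroups, in 3 lists of related pathway genes and in 5 lists of cell type markers, under I-BET151 (left) and JQ1 (right) against control. Filled points passed the adjusted threshold and black bars are medians. The crest and glial medians lie at -0.16 and -0.085, beside -0.34 and -0.51 for endothelial markers.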

How the data were processed

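The deposited table holds RMA intensities, rounded to whole numbers on a linear scale. The authors normalized them with RMA, per the submitters' processing notes, with no version stated there. Because RMA equalises arrays, it would hide a change common to most transcripts. Arrays have no depth, and 2 per group limit the precision. Of 24972 rows, 24014 had 1 gene symbol in the platform's annotation and 958 are unnamed here. For symbols with several rows the brightest row on average was used, which left 24010 genes. Log2 of the intensity was taken with no pseudocount and no filter. limma 3.58.1 (R 4.3.3) was fitted to all 6 arrays with groups as the only term, 3 residual and 1.76 prior degrees of freedom, and p-values were adjusted over 24010 genes per comparison. The members and gene lists were chosen with earlier results of these data known. Every listed gene is named. Of each pathway or marker list, genes called in at least 1 comparison are named, at most 6 by smallest p for the mean of both, with the first 3 genes of each marker list as defining genes. Edn3 was added outside this rule. Simulated data had 200 of 24010 genes changed, drawn from those above the median intensity of controls. There the fit found 34.2% of changes of 1 on the log2 scale for I-BET151 and 33.4% for JQ1, and 4.1% and 4% of changes of 0.5. The simulation shuffled the spreads over genes whatever their intensity, so these shares do not give the power for the listed genes. Folds are from mean log2 values. The alternatives were another pseudocount, a filter on dim genes, array centring, a trended robust prior, 2-group fits, a replicate block and leaving out arrays.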

Additional observations from a re-analysis of the deposited data

How the results depend on the processing

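Each call for a listed gene kept its sign in every fit run. For I-BET151, all genes called numbered 523 with log2(intensity + 10), 1422 of the 12005 kept with dim genes left out, 533 with centred arrays and 1806 with a trended robust prior. For JQ1 these counts were 1487, 2362, 1391 and 2617, and for the mean of both inhibitors 1802, 2675, 1738 and 3006. With dim genes left out, 7 of the 21 listed genes kept fell under I-BET151 and 2 rose, beside 827 and 595 of all 12005 genes. With the trended robust prior, 9 of the 31 fell and 2 rose, beside 1049 and 757 of all 24010. The additions to the calls of the report were Erbb3, Fabp7, Gfra3, Nefl and Ngfr in both. Nefm and Gap43 were added in the second. Centred arrays added Fabp7, which made 4 falls, beside 350 of all 24010 genes. For the mean of both, dim genes left out added Erbb3 and Nefm (8 falls, beside 1467 of 12005 genes). The trended robust prior added Erbb3, Nefl and Nefm (9 falls, beside 1721 of 24010). Under JQ1 Ngfr joined Uchl1, which made 2 rises, with each of these 4 settings. Of all genes, 546 rose there with log2(intensity + 10) and 1043 of 12005 with dim genes left out. With centred arrays 664 rose, and with the trended robust prior 1096.

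Only the 2 groups compared in the fit gave 0 calls, as did the replicate block, for all genes and for listed genes. At an unadjusted p under 0.05, the 2-group fits held 4316 and 5363 genes for I-BET151 and JQ1, and the block 4054, 4709 and 4957 for I-BET151, JQ1 and the mean of both. The labels do not say whether same-numbered arrays of different groups share a litter or culture day. Deviations of same-numbered arrays from their group means correlated at -0.016 to -0.04 over all genes, which does not settle it. Leaving out 1 array left no call with all genes kept. The log2 changes of the genes called under I-BET151 were then -0.75 to -0.63 for Ednrb and -0.89 to -0.80 for Stmn2. They were -1.74 to -1.48 for Tac2 and 0.54 to 0.61 for Uchl1. Residual degrees of freedom were then 2 instead of 3, and the lone array of an arm is assumed to vary like the others. With and without dim genes these fits ranged from 0 to 1042 calls for I-BET151, 0 to 2205 for JQ1 and 0 to 2316 for the mean. The number of listed genes that fell or rose also depended on the fit.

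Small changes of genes with no call turned their sign. With centred arrays the log2 change became 0.015 for Tfap2a, 0.032 for Ret and 0.052 for Dcx under JQ1, and for the mean of both 0.0009 for Tfap2b, 0.025 for S100b and 0.037 for Chrna3. When arrays were left out, the ranges were Elavl3 -0.25 to 0.082, Dcx -0.047 to 0.13, Mapt -0.0009 to 0.11, Hand2 -0.092 to 0.11, Ret -0.26 to 0.057 and Chrna3 -0.45 to 0.29 under I-BET151. They were Chrna3 -0.062 to 0.13, Snap25 -0.11 to 0.15, Ret -0.16 to 0.095, Dcx -0.12 to 0.10, Sox10 -0.29 to 0.12, Tfap2a -0.15 to 0.047 and Cartpt -0.076 to 0.41 under JQ1. For the mean of both they were Elavl3 -0.29 to 0.033, Dcx -0.075 to 0.10, Ret -0.20 to 0.059, Chrna3 -0.21 to 0.16, Tfap2b -0.14 to 0.023, Hand2 -0.0086 to 0.091, S100b -0.094 to 0.027 and Snap25 -0.12 to 0.0027. The cause was not tested. The fit for the mean of both has no 2-group form. Listed genes near the lowest intensity are limited by rounding to whole numbers.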

Other observations

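Some listed genes differed as much between the 2 pools of a treatment as others did between treatments. Phox2a was at 65 and 91 on the I-BET151 arrays, Chrna3 at 110 and 184, Fabp7 at 191 and 317 and Tubb3 at 30 and 19. On the control arrays Nefm was at 489 and 359. Uchl1, Tac2 and Ednrb were tighter, with control values of 207 and 202, 894 and 873, and 641 and 665.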
